A study of Rattus norvegicus with 2 samples.

Results

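Immediate early transcription factors are nuclear proteins whose genes typically switch on within minutes of a stimulus, without new protein synthesis. The set described here was given by name and holds 10 genes: Fos, Fosb, Fosl1, Fosl2, Jun, Junb, Jund, Egr1, Atf3 and Nr4a1, of 15159 rat genes that could be named on the array. They were found by matching each probe's RefSeq accession to a rat gene symbol, which gave a probe to 9 of the 10, with 10 probes and 27 spots per array in all. No probe was matched to Fosb, and the Fosl1 probe lay under the threshold for a signal well above background on each array, so 8 of the 10 had a measured difference. All 8 were well above background on both arrays, so none entered through 1 library alone.

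RNA was measured on 2 one-colour Agilent arrays of rat tissue. One array held the wall of intracranial arteries from the untreated group, labelled normal, and the other an intracranial aneurysm lesion collected 3 weeks after its induction. Strain, age, the way of induction and the number of animals behind each RNA are not stated in the sources used here. With 1 array per group there is no replicate check, no test across samples and no p-value, and every difference below compares these 2 libraries. In such bulk tissue, fewer cells of a type and less RNA per cell cannot be told apart.

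Fos and Jun proteins pair through leucine zippers to form AP-1, which binds DNA and drives genes of growth, matrix breakdown and inflammation. Jun proteins can pair with each other, whereas Fos proteins need a Jun partner, and Atf3 is a stress-induced relative that joins Jun proteins or acts as a repressor. Egr1 is a zinc finger factor and Nr4a1 an orphan nuclear receptor. In vessels these genes respond to stretch, shear stress, growth factors and injury, and several also respond to the handling of tissue.

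Stimuli can reach some of these genes through the cyclic AMP response element. Regulatory sequences of 3 of the genes that hold the core letters of this element are shown as examples. Egr1 and Fosl1 hold the core too, and of the 3 shown only Jund holds the full element. Each sequence shown is the stretch of 250 bases before the annotated transcription start, from RefSeq on the GRCr8 assembly, read 5′ to 3′ on the gene's own strand. Capitals mark the core TGACG, its reverse complement CGTCA, and the full palindrome TGACGTCA, which holds both. The Junb stretch lies at chr19:40080876-40081125 on the plus strand, that of Jund at chr16:18769772-18770021 on the minus strand, and that of Nr4a1 at chr7:134259888-134260137 on the plus strand.
Junb: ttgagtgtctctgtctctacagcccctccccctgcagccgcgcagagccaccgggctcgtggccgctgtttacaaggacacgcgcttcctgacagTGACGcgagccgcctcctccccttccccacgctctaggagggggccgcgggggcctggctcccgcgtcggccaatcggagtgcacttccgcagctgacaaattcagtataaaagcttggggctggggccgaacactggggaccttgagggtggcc
Jund: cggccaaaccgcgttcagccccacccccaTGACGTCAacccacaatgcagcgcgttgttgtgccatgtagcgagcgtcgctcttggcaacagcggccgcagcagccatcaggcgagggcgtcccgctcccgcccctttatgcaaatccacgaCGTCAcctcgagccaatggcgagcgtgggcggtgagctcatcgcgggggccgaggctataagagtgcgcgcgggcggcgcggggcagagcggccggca
Nr4a1: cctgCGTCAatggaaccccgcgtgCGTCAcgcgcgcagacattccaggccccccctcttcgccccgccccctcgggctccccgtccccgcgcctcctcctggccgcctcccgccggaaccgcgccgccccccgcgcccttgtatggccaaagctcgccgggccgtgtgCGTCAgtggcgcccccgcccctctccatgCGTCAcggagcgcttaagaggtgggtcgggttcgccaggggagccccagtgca

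In these stretches Nr4a1 has 4 cores, beginning 246, 226, 82 and 53 bases before the start. Jund has 3, of which the pair that begins 221 and 218 bases before the start overlaps in the palindrome, and Junb has 1, at 155 bases. Of the 10 genes, 7 have an entry in the promoter table, and Fos, Jun and Atf3 have none. In windows of 300 bases, which add 50 bases after the start, and on both strands, the core TGACG was present in 5 of the 7 (Egr1, Fosl1, Junb, Jund and Nr4a1) and in 21.2% of all 33469 promoters. The palindrome was present in Jund alone of the 7, against 1.83% of all promoters. The CArG box, the site of serum response factor, was present in Egr1 alone, as 2 matches that begin 105 and 83 bases before the start, against 1.64% of all promoters. The AP-1 site, searched as TGANTCA, was in none of the 7 and in 7.33% of all promoters. The site of Egr factors, searched as GCGNGGGCG, was in Fosl2 (2 matches), Jund (3) and Nr4a1 (1), against 4.98% of all promoters; no search matched Fosb. A match is a description of letters in a window and was not tied to binding in these tissues.

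None of the 8 measured genes differed by as much as 1.5-fold between the libraries. The lowest difference was that of Fos and the highest that of Fosl2, and the 3 Jun genes lay slightly on the lower side, Egr1 and Atf3 near 0 and Nr4a1 slightly above. The same comparison over 11902 genes called 4.79% at a difference of 2-fold or more (0.882% higher, 3.91% lower) and 12.7% at 1.5-fold or more (4.25% higher, 8.43% lower), so a count of 0 among 8 genes is near that background and is not a result about the set. The median over the 8 was -0.05 against 0.0010 over all genes, and 3 of 8 were higher against 50.2% of all genes. These values are log2 differences, aneurysm minus control, after each array's values were divided by its own 75th percentile, and the value after ± below is the spot error. That error comes from repeat spots of a probe on 1 array and holds no variation between animals.

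The scaling matters for genes this close to 0. The 75th percentile of intensity was 621 on the control array and 801 on the aneurysm array, a log2 difference of 0.37, so a gene with equal intensity on both arrays is given a difference of about that size with the opposite sign. Scaling on 7 spike-in probes instead, RNAs added in known amounts at labelling, raised every difference and shifted the median of all genes by 0.30. With normexp background correction, quoted in places below, the median of all genes was -0.08. Intensities before scaling are given first for each gene, since they show what the scanner read. Levels are compared within a probe only, because probes differ in how brightly they bind.

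**Figure D1:**
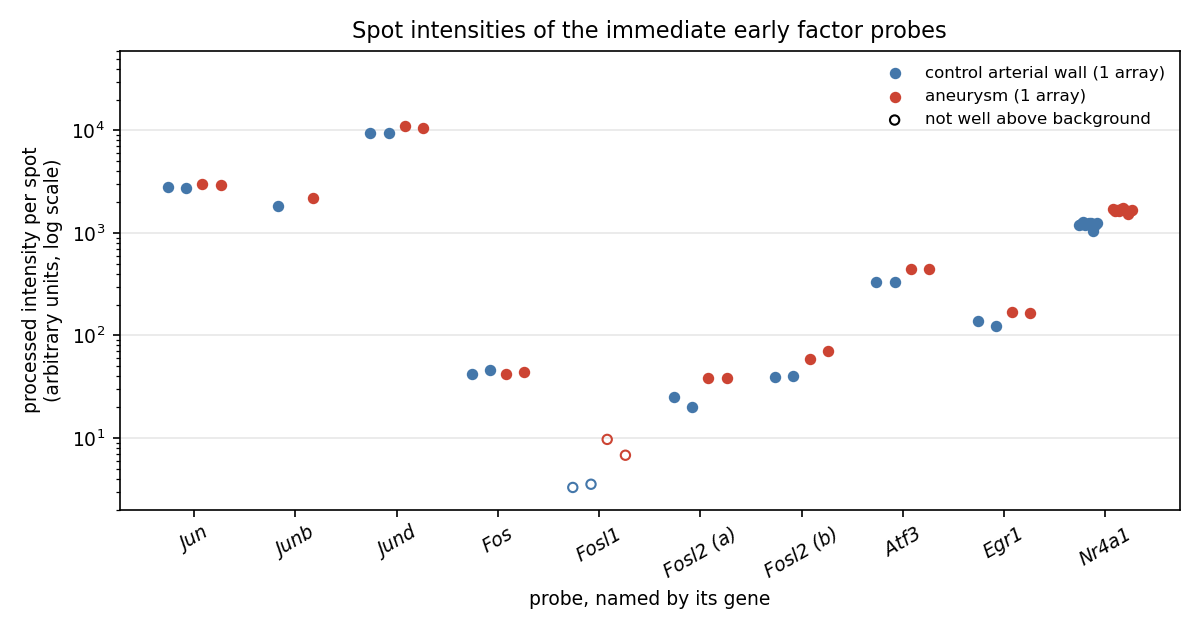
Processed intensity of every spot of the 10 probes on the control array (blue) and the aneurysm array (red), on a log scale in arbitrary units and before scaling; open circles mark spots not well above background, and heights are comparable within a probe, not between probes. Fos spots overlap between the arrays at 41.6 to 45.9, whereas all 10 Nr4a1 spots are higher on the aneurysm array (1524 to 1771, of which the highest is an outlier spot left out of the difference) than on the control array (1050 to 1276).

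The Jun family supplies a partner to every AP-1 dimer, and all 3 of its genes were higher in intensity, but lower after scaling, on the aneurysm array, except with spike-in scaling as given below. Jun, the founding member and a driver of proliferation, read 2837 and 2764 on its 2 control spots and 2973 and 2966 on its 2 aneurysm spots. The aneurysm spots were higher by less than the arrays as a whole. After scaling, Jun differed by -0.28 ± 0.06, or 1.22-fold lower in the aneurysm library. It was lower under 9 of 10 alternative ways of processing and 0.02 with spike-in scaling. Alternatives in the probe rule, the outlier spots and the filter on dim probes left Jun at -0.28. Among the 8 measured genes they changed only Fosl2 and Nr4a1, so counts over the 10 alternatives, here and below, hold repeats of the same value. Among 913 genes of like signal (mean within 0.5 log2 units), it lay at percentile 8.32, inside their 5th to 95th percentile range of -0.37 to 0.43.

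Jund, a broadly expressed Jun protein that restrains proliferation in many cells, read 9445 and 9475 on the control array and 11055 and 10469 on the aneurysm array. Its scaled difference was -0.18 ± 0.05, or 1.14-fold lower, at percentile 19.2 of 307 genes of like signal. Junb, a Jun protein that can oppose Jun and is prominent in endothelium and leukocytes, was measured by 1 spot per array, at 1832 on the control array and 2197 on the aneurysm array. It differed by -0.11 ± 0.08, with an error taken from other probes of like signal. Like Jun, both were lower under 9 of 10 alternatives and higher with spike-in scaling (Jund 0.12, Junb 0.19). Relative to the median of all genes, all 3 Jun genes were lower under all 10 alternatives.

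The Fos family is the inducible side of AP-1, and its measured genes lay near the dim end of what the arrays resolve. Fos, the classic marker of recent stimulation, read 41.6 and 45.9 on the control array and 42.2 and 43.7 on the aneurysm array, so the spots of the arrays overlapped. Because equal intensities were scaled against a brighter aneurysm array, the scaled difference was -0.39 ± 0.27, or 1.31-fold lower. It was below 0 under all 10 alternatives, from -0.45 with normexp background correction to -0.09 with spike-in scaling. At this signal genes scatter widely: the 5th to 95th percentile range of 1264 genes of like signal was -1.12 to 0.61, and Fos lay at percentile 21.4.

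Fosl2, also called Fra-2, is a Fos relative without a strong activation domain that takes part in matrix and bone gene control. Its brighter probe read 39.6 and 40.5 on the control array and 59.2 and 70.4 on the aneurysm array, with no overlap, and gave 0.32 ± 0.25, or 1.25-fold higher. Its other probe read 25.1 and 19.8 against 38.4 and 38.6, again without overlap, and gave 0.42 ± 0.51. The probes therefore had the same sign, each within 2 spot errors of 0. Over the alternatives the difference ran from 0.0033 with normexp to 0.62 with spike-in scaling, and its percentile among 1288 genes of like signal was 85.0.

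Fosl1, or Fra-1, is a Fos relative linked to cell migration and protease expression. It read 3.29 and 3.53 on the control array and 9.68 and 6.78 on the aneurysm array. All 4 spots were below the threshold for a signal well above background, so no fold is given. What limits this gene is signal over background.

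Atf3 and Egr1 had differences within 1 spot error of 0. Atf3 read 333 and 335 on the control array and 448 and 443 on the aneurysm array, and its scaled difference was 0.05 ± 0.09, with a range of -0.03 (normexp) to 0.35 (spike-in scaling) over the alternatives. Egr1, an early response factor to vessel injury that induces growth factor and tissue factor genes, read 138 and 123 on the control array and 170.4 and 166 on the aneurysm array. Its difference was -0.0013 ± 0.13, ranging from -0.10 (normexp) to 0.30 (spike-in scaling), and the sign of both genes turned with the setting. The intensity of each was higher on the aneurysm array by about as much as the arrays as a whole, and each lay close to the middle of genes of like signal (percentiles 50 and 47.4).

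Nr4a1, also named Nur77, is induced by the same stimuli and limits smooth muscle growth and macrophage activation in the artery wall. It had the most spots and the smallest spot error of the set, with 10 spots used on the control array and 9 on the aneurysm array, where 1 outlier spot was left out. The control spots ran from 1050 through a median of 1216 to 1276, and the 9 aneurysm spots from 1524 through 1673 to 1716. The spots of the arrays did not overlap before scaling, on the brighter aneurysm array. After scaling their ranges did overlap: the lowest aneurysm spot (0.93 on the log2 scale) lay below the highest control spot (1.04). Compared at the same position, each of the 9 was still higher on the aneurysm array than on the control array. The scaled difference was 0.08 ± 0.03, or 1.06-fold. It stayed above 0 under all 10 alternatives (0.03 with loess centring to 0.38 with spike-in scaling), yet 72.9% of 1227 genes of like signal lay at least as far from 0.

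**Figure D2:**
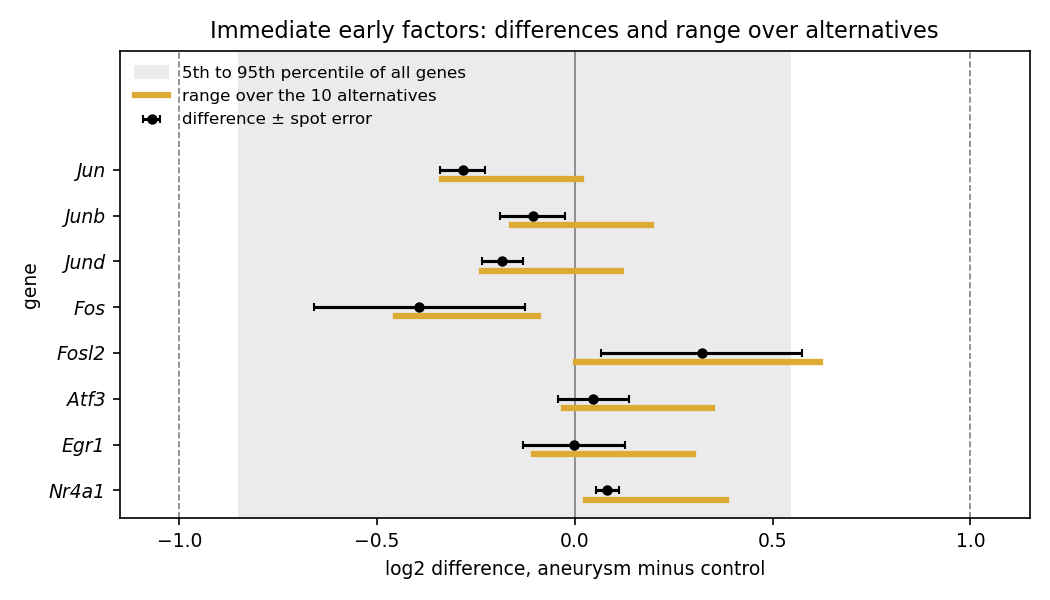
Log2 difference, aneurysm minus control, of the 8 measured genes (black points, with the spot error as bars) and the lowest to highest value over the 10 alternatives (yellow bars); the grey band spans the 5th to 95th percentile of all genes (-0.85 to 0.54) and dashed lines mark 2-fold. Every black point lies inside the grey band, and the yellow bars of Jun, Junb, Jund, Atf3 and Egr1 cross 0.

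Differences between genes are less tied to the scaling, since a constant shift of 1 array cancels in them. The log2 difference of Jun minus that of Nr4a1 was -0.37 ± 0.06, with -0.38 to -0.31 over the alternatives. Jund minus Nr4a1 was -0.26 ± 0.06 (-0.27 to -0.18), Junb minus Nr4a1 -0.19 ± 0.09 (-0.20 to -0.17) and Jun minus Atf3 -0.33 ± 0.11 (-0.33 to -0.22). The ratio of each Jun gene to Nr4a1 was therefore lower in the aneurysm library. Of the alternatives, only normexp, quantile normalization, loess centring and keeping outlier spots could move these ratios, and each left them lower. The other scalings cancel, and the other rules left these genes unchanged. Only some of the pairs among the measured genes are given here. The error of a pair holds spot errors alone, and ratios between other genes of like signal were not computed. The SD of single-gene differences among genes of like signal was 0.26 around Jun, 0.23 around Jund, 0.35 around Junb and 0.41 around Nr4a1. The ratios to Nr4a1 were therefore not shown to be unusual for genes at these signals. Within the Fos family, Fos minus Fosl2 was -0.71 ± 0.37 (-0.76 to -0.46). Fos minus Jun, the classic AP-1 pair, was -0.11 ± 0.27, with -0.20 to 0.10 over the alternatives. These are unequal changes in 2 libraries and do not show that either gene of a pair stayed constant.

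**Figure D3:**
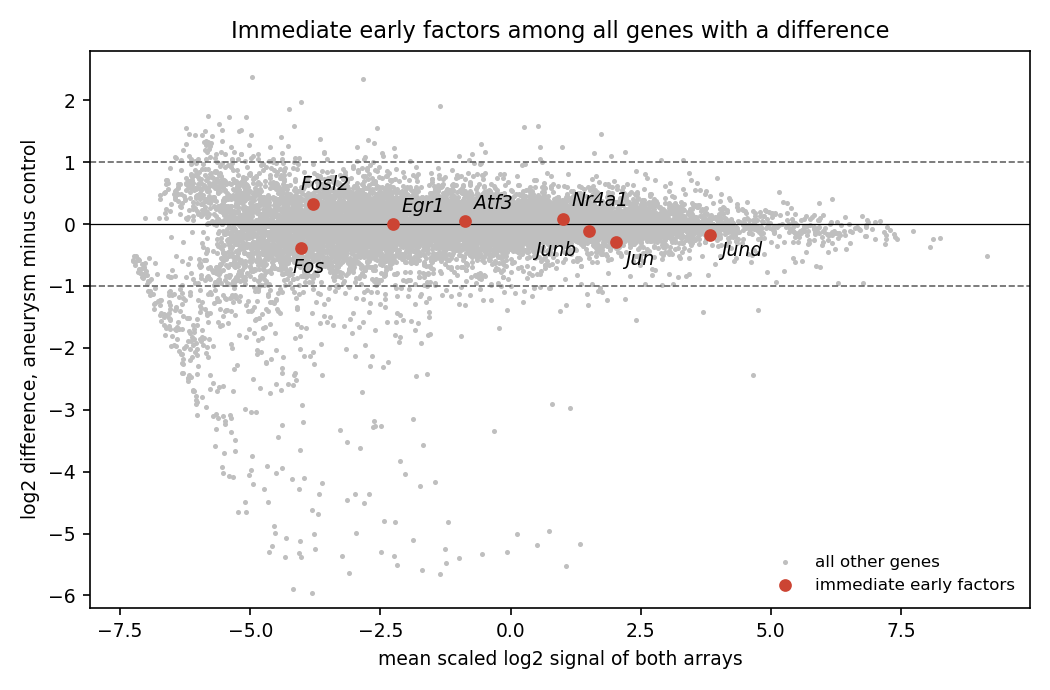
Log2 difference, aneurysm minus control, against the mean scaled log2 signal of both arrays for all 11902 genes with a difference (grey), with the 8 immediate early factors named (red) and dashed lines at 2-fold. All 8 lie between the dashed lines, from -0.39 (Fos) to 0.32 (Fosl2), and the grey cloud widens toward low signal, where Fos and Fosl2 lie.

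Beyond the named factors, the lists of related genes are counted over genes well above background on both arrays, since a gene so on 1 array only had to differ. Of all 11201 such genes, 50% were higher, 3% at least 1.5-fold higher, 6.22% at least 1.5-fold lower, 0.455% at least 2-fold higher and 2.11% at least 2-fold lower. The list of other immediate early genes held 21 of them, 15 higher and 6 lower, with 4 at least 1.5-fold higher and 1 at least 1.5-fold lower. Its median was 0.03, or 0.13 with Zfp36 added, which was well above background in the aneurysm library only. Ccn2, the matrix-associated growth factor CTGF and a target of YAP and TGF-beta signalling, read 1496 to 1690 over 10 control spots (median 1626) and 3989 to 4776 over 10 aneurysm spots (median 4546). It was 2.14-fold higher (1.099 ± 0.03), with 1.05 to 1.40 over the alternatives, and the spots did not overlap. Klf2, the flow-responsive endothelial factor, read 308 and 334 against 715 and 717 and differed by 0.79 ± 0.09. Zfp36, which destabilises cytokine messages, read 5.42 and 12.3 against 17.5 and 21.9, and at this signal no fold is given.

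Close relatives of Egr1 and Nr4a1 did not share 1 direction. Egr2, a zinc finger factor of myelination and lymphocyte tolerance, read 13.3 to 20.5 over 10 control spots (median 19.96) and 38.5 to 56.0 over 10 aneurysm spots (median 48.2). These ranges did not overlap, and the difference was 0.997 ± 0.22, but 0.11 with normexp. Egr3 and Egr4, named after their values were seen, were at 0.00011 ± 0.61 and -0.27 ± 0.17. Among orphan receptors related to Nr4a1, Nr4a2 was at 0.01 ± 0.09 on 1 spot per array. Nr4a3 read 51.0 and 56.6 on the control array and 50.8 and 40.6 on the aneurysm array, without overlap, and differed by -0.61 ± 0.21 (-0.66 to -0.31 over the alternatives).

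Genes that set the output of these factors were described by lists. Of 19 measured AP-1 partners and related leucine zipper factors, 15 were higher and 4 lower, with a median of 0.11. Cebpd and Cebpb, acute phase and inflammatory factors, were at 0.63 ± 0.06 and 0.51 ± 0.06 and Nfe2l2, the oxidative stress factor NRF2, at 0.36 ± 0.06. Atf2, a Jun partner, was at -0.54 ± 0.10. In the list of serum response factor and its cofactors (8 genes, median 0.12, or 0.0030 with normexp), Srf itself was at -0.05 ± 0.06. Fhl2, a LIM protein that binds it, read 282 and 309 against 755 and 760.4 and differed by 0.99 ± 0.09. Elk1, a ternary complex factor, was at 0.50 ± 0.25 and 0.05 with normexp, Ets1 was at 0.42 ± 0.25 and -0.09 with normexp, and Elk3 was at -0.26 ± 0.14.

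Upstream kinases and their feedback inhibitors come next. In the MAP kinase list 7 of 17 genes were higher, and the median was -0.04 (0.26 with spike-in scaling). Its farthest values were Mapk9, which encodes the Jun kinase JNK2 (-0.69 ± 0.14 on 1 spot per array), Map2k1 or MEK1 (0.58 ± 0.08), Mapk3 or ERK1 (-0.41 ± 0.05) and Rps6ka1 (-0.40 ± 0.06). In the feedback inhibitor list 8 of 10 were higher against 50% of all such genes, with a median of 0.27 (0.10 with normexp). None of the 10 reached 1.5-fold, a count near the 3% higher and 6.22% lower of all such genes. Dusp2 and Spred2, well above background in the aneurysm library only, are left out of these counts, and with them the median was 0.33. In it Errfi1, an inhibitor of the EGF receptor, was at 0.56 ± 0.05, Dusp1, a phosphatase of p38 and JNK and itself an immediate early gene, at 0.49 ± 0.12, Dusp14 at 0.45 ± 0.13 and Dusp5 at 0.45 ± 0.09. With normexp, Dusp1 was at 0.21 and Dusp5 at 0.06. The difference between these lists was not tested.

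Of 27 genes known to hold AP-1 sites, Fosl1 among them, 18 were well above background on both arrays, 13 of them higher, with a median of 0.16. At least 2-fold higher were 3 of the 18, against 0.455% of all such genes. The list was chosen with earlier results of these data known. Spp1, or osteopontin, read 244 to 288 (median 272) against 799 to 893 (median 859) over 10 spots, without overlap, and differed by 1.29 ± 0.04. Ccl2, the monocyte chemoattractant, read 78.5 to 105 (median 93.5) against 235 to 264 (median 255) over 8 spots, and its difference was 1.11 ± 0.08, or 0.70 with normexp. Plau, the urokinase, read 8.42 and 10.4 against 19.1 and 28.1 and, like Mmp12 and Cxcl1, was well above background in the aneurysm library only. Many other factors act on these genes, and the list's median was 0.00024 with normexp, where the median of all genes was -0.08.

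Stress programs around Atf3 gave small differences. The integrated stress response list had 12 of 15 genes higher (median 0.23), with Gadd45g at 0.62 ± 0.09, Cebpb as above, Ddit4 at 0.48 ± 0.03 and Gadd45a at 0.41 ± 0.09. Heat shock genes, which also respond to tissue handling, were higher in 12 of 13 cases (median 0.18), led by the chaperone gene Dnaja1 at 0.61 ± 0.06, Hspb1 at 0.44 ± 0.07, Hsp90ab1 at 0.36 ± 0.08 and Bag3 at 0.36 ± 0.03. Hspa1b, for which no probe could be matched, was not analysed here. Over all 119 genes of these lists outside the named factors that were well above background on both arrays, 86 were higher (72.3% against 50% of all such genes). At least 2-fold higher were 4 (3.36% against 0.455% of all such genes), and 0 were at least 2-fold lower (against 2.11%). Another 6 were well above background in the aneurysm library only and are not in those counts. Arterial and macrophage markers, described below, had greater shares: 77.8% of smooth muscle, 77.8% of endothelial, 85.7% of fibroblast and 90% of macrophage markers were higher. Markers of other tissues were mostly lower. A share above 50% is thus not particular to these lists, which were chosen with earlier results of these data known. Spike-in scaling raises every count of higher genes, and normexp brought the medians of other immediate early genes and AP-1 partners to -0.0024 and -0.03. The median of all genes with normexp was -0.08, below both.

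**Figure D4:**
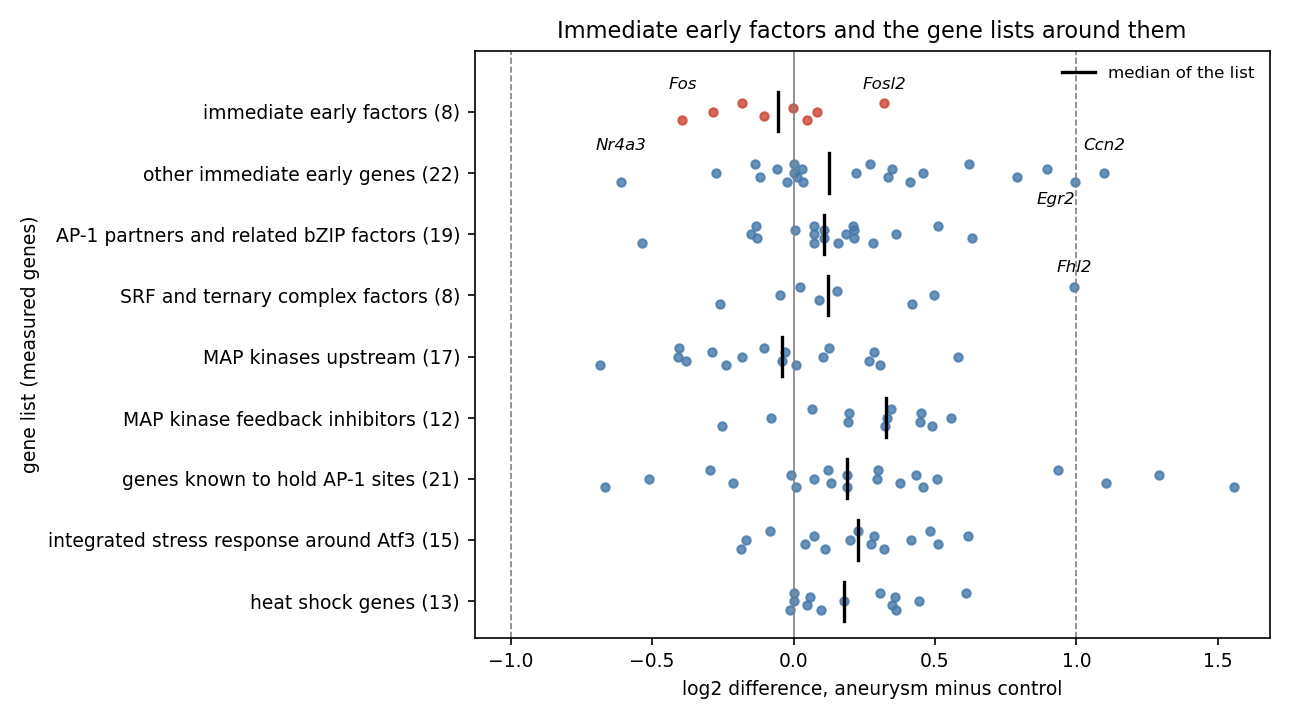
Log2 difference, aneurysm minus control, of each measured gene (points, bounds included at their bound) in the set of immediate early factors (red) and in 8 lists around it (blue), with the median of each list as a black bar and dashed lines at 2-fold. The immediate early factors have a median of -0.05; the medians of the lists run from -0.04 (MAP kinases upstream) to 0.33 (feedback inhibitors), and Ccn2 lies past the 2-fold line at 1.099.

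Signals of tissue marker genes differed between the libraries, and immediate early genes are expressed in most cells. Arterial markers were present in both: 9 of 9 measured smooth muscle, 9 of 9 endothelial and 7 of 7 fibroblast markers were well above background on both arrays, with median differences of 0.15, 0.18 (0.01 with normexp) and 0.43. Macrophage markers had a median of 0.24 over 10 genes. Markers of other tissues were mostly lower in the aneurysm library, where 2.11% of all genes well above background on both arrays were at least 2-fold lower. Each of the 10 hepatocyte markers with a signal well above background on both arrays was at least 2-fold lower (median -4.43), and another 4 were well above background on the control array only. The median over the 14 was -5.09, or -2.93 with normexp, and the summed intensity before scaling was 29668 on the control array and 6934 on the aneurysm array. Alb was at -5.52 and Ambp at -5.65. Oligodendrocyte markers had 5 of 8 at least 2-fold lower (median -1.13; summed intensity 104664 and 69157), neuron markers 2 of 9 (median -0.23, or -0.42 without Slc17a7, well above background on the aneurysm array only; 3512 and 3267) and pituitary markers 3 of 5 (median -1.41; 6393 and 1938). Astrocyte markers had 6 of 7 lower (median -0.27; 29740.0 and 34499) and erythrocyte markers 4 of 4 (median -0.86; 92597 and 63938). Of the 9 neuron markers 3 were higher and 6 lower, with Gad2, named after its value was seen, at 0.62 ± 0.17. The neuron and astrocyte medians were 0.07 and 0.03 with spike-in scaling. The pituitary marker Prl lay under the threshold for a signal well above background on each array. The part of these cells in the values of the immediate early factors was not tested.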

How the data were processed

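RNA of 1 control arterial wall and 1 aneurysm was prepared with a fibrous tissue kit and labelled in 1 colour, per the labels. Per the file headers, the authors deposited Feature Extraction 10.10.1.1 output for each array, whose processed spot intensities (linear scale) were used with flags for outlier spots and spots well above background. Both arrays lay on 1 slide and share 1 scan time, per the file headers. Of 58717 non-control spots, 74.7% and 76.4% were well above background and 0 were saturated. Outlier spots (484 and 573) were left out. Intensities were put on the log2 scale, minus each array's 75th percentile, and spots of a probe averaged. A probe is taken as well above background where no fewer of its spots have that flag than lack it. Accessions were matched without version to a RefSeq table of GRCr8, used for names: 18006 of 30367 probes matched 1 gene. A gene takes its brightest probe well above background on either array; 11902 genes had a difference. Of these, 701 were well above background on 1 array only and have a bound. It was set against the value on the dim array or, where higher, the lowest value well above background there. Spot errors pool the spot SD over 20 bins of like signal. The code was tested on simulated data. Tools were R 4.3.3, limma 3.58.1 and Python 3.11.15.

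The genes and lists were chosen with earlier results of these data known. Named from each list are up to 4 genes with the largest absolute difference (2 for marker lists), plus Nr4a2, Nr4a3, Srf, Dusp1, Hspa1b and Alb; not all of these are reported here. With 2 arrays no gene can be ranked by likeness of pattern. The 10 alternatives changed the background correction (normexp, offset 50), the scaling (quantiles, the median, loess, spike-ins, or the 75th percentile of probes well above background on each array), the probe rule (mean of a gene's probes), the outlier spots (kept) or the filter on dim probes (stricter, or none). Normexp was planned on mean spot intensities but was run on median spot and background intensities, also deposited by the authors, a departure from the plan. A threshold of 1.5-fold was tried beside 2-fold.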

Additional observations from a re-analysis of the deposited data

How the results depend on the processing

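No alternative brought any of the 8 genes to 2-fold, and 71 of 80 gene values over the 10 alternatives kept their sign. Of the 9 that changed, 4 did so with spike-in scaling, and 1 of the 80 reached 1.5-fold (Fosl2 with spike-in scaling). Many of the 80 values are repeats whose sign could not change. The alternatives in the probe rule, the outlier spots and the filter on dim probes changed only Fosl2 and Nr4a1. With spike-in scaling 7 of the 8 genes were higher and their median was 0.25, a shift that all genes share. The count of genes at least 2-fold apart in the surrounding lists (4, or 3.2% of 125, against 4.79% of all genes) was 2 with normexp (1.68% against 1.79%), 6 with median centring (4.8% against 4.81%), 7 with quantile normalization and 7 with loess centring (each 5.6% against 4.78%), 9 with spike-in scaling (7.2% against 5.35%) and 16 at 1.5-fold (12.8% against 12.7%). These shares count both directions. In the main setting all 4 list genes were higher, so their 3.2% compares with 0.882% of all genes at least 2-fold higher. The other 3.91% of all genes were at least 2-fold lower, against 0 in the lists. With the stricter filter on dim probes the count was 4 (3.36% against 2.57%, both directions). Of 80 list medians over the alternatives, 18 moved by more than the median spot error of the 8 genes. No paired analysis was possible because each group has 1 array. Signal over background limits Fos and Fosl2, and leaves Fosl1 without a fold.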
